A study of Homo sapiens with 12 samples.

Results

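Contactins, teneurins and their neurite adhesion partners were followed as 10 genes chosen by symbol: CNTN1 (contactin 1), CNTNAP1 and CNTNAP2 (contactin-associated proteins), TENM1, TENM2, TENM3 and TENM4 (teneurins), and ADGRL1, ADGRL2 and ADGRL3 (latrophilins). Of these, 8 were listed among the 13951 genes analysed, and TENM3 and TENM4 were not listed. CNTN1 and TENM2 were picked for their changes in these same CPM values (read counts scaled to library size), so their values are given as a description with no test, and tests cover the 6 other listed members. mRNA was sequenced in 12 libraries of CWR-22Rv1, an established prostate carcinoma line grown from a xenograft that relapsed after castration, with 3 replicates in each of 4 groups. Control cells carried exogenous Cas9 and no guide RNA. LV-MEIS1 cells carried exogenous, lentiviral MEIS1, and whether they also carried Cas9 is not stated. HOXB13ko cells carried Cas9 and were edited at HOXB13 by CRISPR, and HOXB13ko-LV-MEIS1 cells were made from them by adding lentiviral MEIS1. The knockout line was a pool re-combined from 6 clones, and each group was a single derived line, so replicates do not sample independently made lines. All groups were cultured with puromycin and harvested after 48 h. The study asked which effects of MEIS1 depend on HOXB13, its homeodomain partner.

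Contactins are immunoglobulin-like proteins anchored in the outer membrane leaflet, and they pair with contactin-associated proteins to join axons to myelinating glia and to place ion channels along the axon. CNTNAP1 (Caspr) forms the junction beside the node of Ranvier with CNTN1, while CNTNAP2 (Caspr2) clusters potassium channels next to it. Teneurins are large transmembrane proteins that cross the synaptic cleft to bind latrophilins, which are adhesion G protein-coupled receptors, and latrophilins also bind FLRT proteins, which in turn bind the netrin receptors of the UNC5 family. Most of this is known from nerve tissue, and the genes are measured here in an epithelial cancer line.

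The promoters of the 4 members with the widest range of CPM over the libraries are shown, so that the genes can be placed beside their values. Each run holds 250 bases before and 50 after the RefSeq start, 5′ to 3′ on the gene's own strand, in GRCh38.p14. The promoter table held 7 of the 8 listed members, and ADGRL1 had no entry. The capitals mark the letters TGACAG or its reverse complement CTGTCA, the core recognised by MEIS proteins. CNTN1 lies at chr12:40827934-40828233, ADGRL3 at chr4:61200076-61200375, TENM2 at chr5:167072992-167073291 and CNTNAP2 at chr7:146116551-146116850.
CNTN1: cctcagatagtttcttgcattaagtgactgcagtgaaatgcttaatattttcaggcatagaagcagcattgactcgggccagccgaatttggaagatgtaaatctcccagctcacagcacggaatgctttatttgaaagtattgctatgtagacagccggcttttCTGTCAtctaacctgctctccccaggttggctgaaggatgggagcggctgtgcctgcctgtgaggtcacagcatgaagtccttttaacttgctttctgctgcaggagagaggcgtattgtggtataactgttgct
ADGRL3: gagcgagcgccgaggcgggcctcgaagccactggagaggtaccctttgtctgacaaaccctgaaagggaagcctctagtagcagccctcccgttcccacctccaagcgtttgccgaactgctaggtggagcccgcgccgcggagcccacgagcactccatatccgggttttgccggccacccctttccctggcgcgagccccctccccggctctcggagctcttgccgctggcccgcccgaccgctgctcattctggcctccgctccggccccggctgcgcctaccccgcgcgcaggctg
TENM2: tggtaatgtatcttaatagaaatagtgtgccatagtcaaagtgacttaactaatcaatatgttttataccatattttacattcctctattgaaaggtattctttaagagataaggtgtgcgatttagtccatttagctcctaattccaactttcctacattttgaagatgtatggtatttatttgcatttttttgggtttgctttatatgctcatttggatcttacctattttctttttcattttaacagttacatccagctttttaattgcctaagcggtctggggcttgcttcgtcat
CNTNAP2: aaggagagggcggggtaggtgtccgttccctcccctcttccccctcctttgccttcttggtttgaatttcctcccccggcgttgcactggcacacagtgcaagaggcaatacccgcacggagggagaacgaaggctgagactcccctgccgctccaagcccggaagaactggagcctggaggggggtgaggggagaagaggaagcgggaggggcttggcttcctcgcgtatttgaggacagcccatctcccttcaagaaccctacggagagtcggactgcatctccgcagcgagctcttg

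The MEIS letters occurred once in the CNTN1 window, on the opposite strand and 85 bases before the start, and in none of the windows of ADGRL3, TENM2 and CNTNAP2. They were present in 15.9% of all 27305 promoters of this length. Of the other members, TENM1 held them once, 89 bases before a RefSeq start that lies 240495 bases from that of its main GENCODE transcript. The letters CCAATAAA and their reverse complement, a HOXB13 core, were in none of the 7 members and in 0.992% of all promoters. Both motifs were searched on both strands, they do not overlap each other, and a match is a description of the letters only. The windows differed in base composition. GC content was 69.7% in ADGRL3 with 30 CpG dinucleotides, 61.7% in CNTNAP2, 47.0% in CNTN1 with 6 CpG, and 32.0% in TENM2 with 3 CpG, against medians of 58.3% and 14 CpG over all promoters. The RefSeq starts of ADGRL3 and CNTNAP2 coincided with those of the main GENCODE transcripts, whereas those of CNTN1 and TENM2 lay 135745 and 94213 bases away, so these windows, like that of TENM1, are of an alternative start, and the start in use was not measured.

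The labels were checked with the 2 manipulated genes. MEIS1 lay between 4.05 and 4.45 CPM among Control libraries, between 45.8 and 49.6 among LV-MEIS1, between 3.42 and 3.65 among HOXB13ko and between 29.3 and 30.1 among HOXB13ko-LV-MEIS1. MEIS1 was thus lower in the edited line with lentivirus than in LV-MEIS1, with a log2 difference of -0.66 ± 0.07 (SE). HOXB13 mRNA went against its label: it averaged 196 CPM in Control and 151 CPM in LV-MEIS1, and 327 and 354 CPM in the libraries labelled HOXB13ko and HOXB13ko-LV-MEIS1. mRNA level does not report the edit or the protein, and the study checked the loss of HOXB13 protein by western blot. Every direction given for these libraries is that of the label. Luminal markers were all listed (7 of 7), at summed levels from 1627 to 1719 CPM in LV-MEIS1 and from 2223 to 2749 CPM in the other libraries, and the 3 basal markers KRT5, KRT14 and TP63 were not listed. Of 7 neuronal or neuroendocrine markers, SYP, ENO2 and MAP2 were listed, while the defining CHGA, INSM1 and STMN2 were among those not listed. Their sum was 223 to 229 CPM in LV-MEIS1 and 240 to 263 CPM elsewhere, most of it ENO2. Within it SYP reached 14.4 CPM or more in each Control library, but 1.24 to 2.14 CPM for LV-MEIS1 and 3.51 to 4.35 CPM for the edited lines, whereas the MAP2 ranges of Control (51.5 to 60.2 CPM) and LV-MEIS1 (53.5 to 67.3 CPM) overlapped. Of 5 myelinating glia markers only MBP was listed, at 17.9 to 19.6 CPM in LV-MEIS1 and 4.30 to 8.49 CPM elsewhere. Of 5 fibroblast markers 3 were listed, and their sums were 23.4 to 27.0 CPM for Control, 34.9 to 41.0 for LV-MEIS1 and 28.6 to 34.9 for the others. These 3 did not move together, since in LV-MEIS1 against Control the median of COL1A1 was 33.7 CPM against 14.1, with no overlap, while the ranges were lower for ACTA2, at 4.70 to 6.11 CPM against 8.68 to 9.15, and for PDGFRB, at 0.187 to 0.333 CPM against 0.988 to 2.12. These markers moved with the groups compared, and their part in the members' results was not tested. Estimated depths were 17200000 to 28700000 reads, at which 3 reads correspond to between 0.105 and 0.175 CPM.

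**Figure D1:**
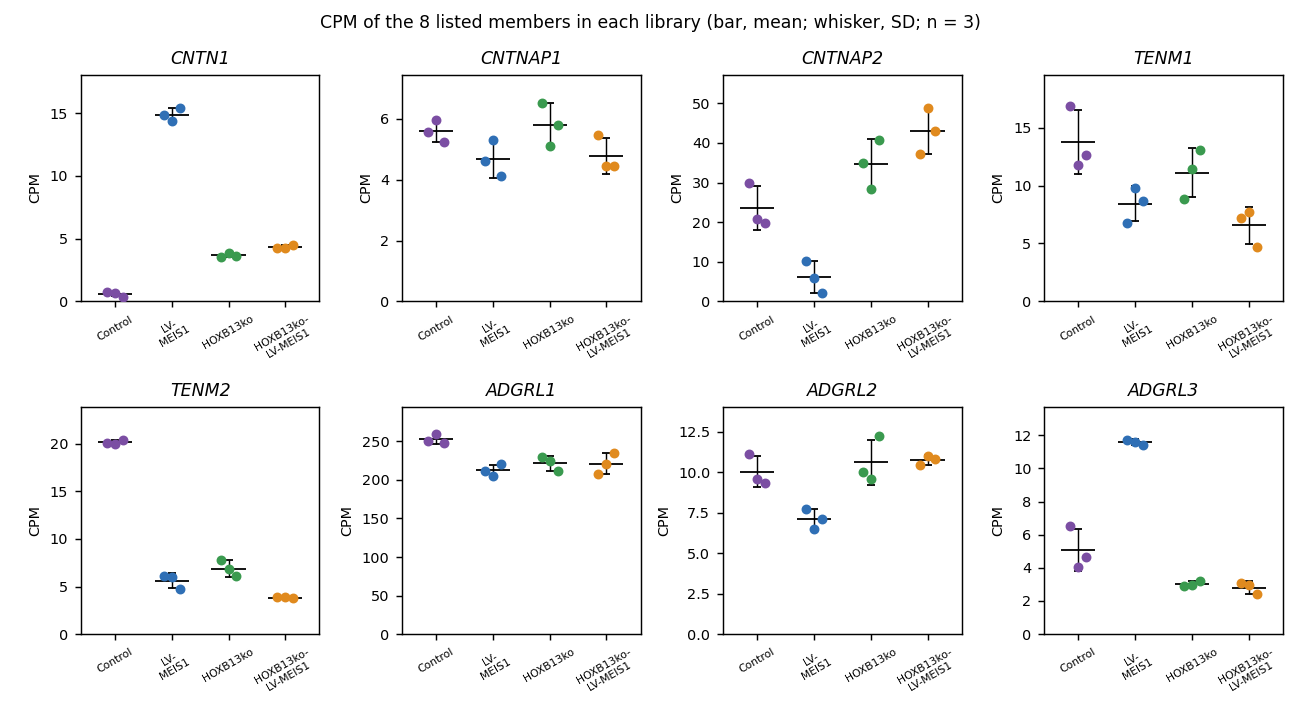
CPM of each listed member (vertical axes, each starting at 0) in the 12 libraries by group, with points for libraries, bars for the mean and whiskers for the SD (n = 3). CNTN1 was highest in LV-MEIS1 at 14.3 to 15.4 CPM, TENM2 highest in Control at 20.02 to 20.4 CPM, and CNTNAP2 lowest in LV-MEIS1 at 2.20 to 10.2 CPM.

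CNTN1 (ENSG00000018236, GRCh38 chr12:40692439-41072415, plus strand) was the member with the widest range, 41.3-fold from the lowest library to the highest. It was at 0.705, 0.699 and 0.372 CPM in the 3 Control libraries and at 14.9, 14.3 and 15.4 CPM in LV-MEIS1. In the libraries labelled HOXB13ko it was at 3.56, 3.84 and 3.64 CPM, and in HOXB13ko-LV-MEIS1 at 4.25, 4.23 and 4.51 CPM. The 4 groups followed each other from Control to HOXB13ko, HOXB13ko-LV-MEIS1 and LV-MEIS1 with no overlap at any step, although the middle pair was separated by only 0.389 CPM. Mean CPM was 25.1-fold higher in LV-MEIS1 than in Control, 6.21-fold higher in HOXB13ko than in Control, and 1.18-fold higher in HOXB13ko-LV-MEIS1 than in HOXB13ko. On the log2(CPM + 0.5) scale, which understates changes of low genes, these were differences of 3.83, 1.95 and 0.21, each ± 0.13 (SE). The lowest Control library carried the ratio in part: without Control replicate 3 the log2 difference of LV-MEIS1 from Control was 3.68. In bulk RNA, fewer cells expressing a gene and less RNA per cell cannot be told apart, for this and every other member.

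The share of contactin 1 among the listed contactins was lowest in Control and highest in LV-MEIS1. The edited lines lay between and close to each other. Levels of different genes were compared per kb of the main transcript. CNTN1 made up 5.73 ± 1.15% (SD, n = 3) of the CPM per kb summed over the 3 listed contactins in Control, where CNTN3 and CNTN4 took 45.8% and 48.5%. In LV-MEIS1 the CNTN1 share was 78.2 ± 1.36%, and in HOXB13ko and HOXB13ko-LV-MEIS1 it was 24.9% (23.8% to 27.0%) and 29.2% (27.3% to 31.0%). The summed contactin level was 1.79 ± 0.29 CPM per kb in Control and 3.35 ± 0.16 CPM per kb in LV-MEIS1, so the shift in share came with a higher sum.

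The Caspr genes that pair with contactins differed from CNTN1 and from each other. CNTNAP1 (ENSG00000108797, chr17:42682531-42699993), the partner of CNTN1 at the paranode, stayed between 4.11 and 6.54 CPM in all 12 libraries, and its groups overlapped in every comparison. It was at 5.58, 5.96 and 5.25 CPM in Control, and its means were 4.67 ± 0.60 CPM in LV-MEIS1, 5.82 ± 0.71 CPM in HOXB13ko and 4.79 ± 0.58 CPM in HOXB13ko-LV-MEIS1 (SD, n = 3). The 95% interval of its log2 difference between LV-MEIS1 and Control ran from -0.52 to 0.03, and no comparison passed limma treat or limma eBayes.

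CNTNAP2 (ENSG00000174469, chr7:146116002-148420998), a gene spanning 2.30 Mb, fell with MEIS1 in cells not edited at HOXB13. It was at 29.9, 20.8 and 19.8 CPM in Control and at 10.2, 5.87 and 2.20 CPM in LV-MEIS1. The edited lines were at the upper end, with 34.8, 28.3 and 40.8 CPM in libraries labelled HOXB13ko. The libraries labelled HOXB13ko-LV-MEIS1 held 37.3, 48.8 and 43.04 CPM. Every LV-MEIS1 library lay below every other library, and the 3 other groups overlapped their neighbours. The log2 difference of LV-MEIS1 from Control was -2.05 ± 0.34 (SE, limma treat against a fold of 1.5, adjusted p = 0.0111). It was 0.32 ± 0.34 between HOXB13ko-LV-MEIS1 and HOXB13ko, with a 95% interval from -0.41 to 1.04. The difference between these 2 MEIS1 effects was -2.36 ± 0.48 (limma treat, adjusted p = 0.0416). The replicates of LV-MEIS1 were far apart, with a coefficient of variation of 65.9%. The call against Control was lost without Control replicate 1 (limma treat, adjusted p = 0.063), and that of the difference was lost in 9 of the 12 fits that each left out 1 library, with adjusted p up to 0.119. The contrast of HOXB13ko-LV-MEIS1 with LV-MEIS1, the 2 lines with lentiviral MEIS1, was 2.93 ± 0.34 on the log2 scale (limma treat, adjusted p = 0.000111). It kept its call in all 12 such fits, with adjusted p of at most 0.001.

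Both listed teneurins were at their highest mean in Control and their lowest in HOXB13ko-LV-MEIS1. TENM2 (ENSG00000145934, chr5:166979029-168264157) was at 20.1, 20.02 and 20.4 CPM in Control, with the lowest coefficient of variation of any member in any group, 1.08%. It was at 6.14, 5.95 and 4.70 CPM in LV-MEIS1, at 7.80, 6.80 and 6.06 CPM in HOXB13ko, and at 3.87, 3.85 and 3.75 CPM in HOXB13ko-LV-MEIS1. Control stood 12.2 CPM above the next library, LV-MEIS1 and HOXB13ko overlapped, and the line with both changes lay below both. Log2 differences were -1.77 for LV-MEIS1 against Control, -1.49 for HOXB13ko against Control and -0.77 for HOXB13ko-LV-MEIS1 against HOXB13ko, each ± 0.11 (SE). As ratios of mean CPM, TENM2 with MEIS1 was at 0.277 of the level without it in cells not edited and at 0.555 in edited cells.

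TENM1 (ENSG00000009694, chrX:124375903-125204312, minus strand) varied more within groups. It was at 16.9, 11.8 and 12.6 CPM in Control, at 6.81, 9.82 and 8.67 CPM in LV-MEIS1, at 8.87, 11.4 and 13.1 CPM in HOXB13ko and at 7.25, 7.72 and 4.71 CPM in HOXB13ko-LV-MEIS1. Each group overlapped its neighbours in the order of means, while the MEIS1 lines lay below their own comparators. The log2 difference was -0.67 ± 0.19 for LV-MEIS1 against Control and -0.73 ± 0.19 for HOXB13ko-LV-MEIS1 against HOXB13ko. Neither passed limma treat, and the first passed limma eBayes against no change (adjusted p = 0.0106) while the second did not (adjusted p = 0.144). The difference between them, 0.06 ± 0.27, had a 95% interval from -0.52 to 0.64. The span of TENM1 overlaps that of the listed gene STAG2 on the opposite strand. Whether their transcripts share sequence was not examined, and the authors' counting is not stated to use strand. Per kb, TENM2 made up 64.8 ± 4.44% of the teneurin sum in Control and between 42.6% and 45.4% on average in the other groups, whose sums were 1.20, 1.53 and 0.879 CPM per kb against 3.02 CPM per kb in Control.

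**Figure D2:**
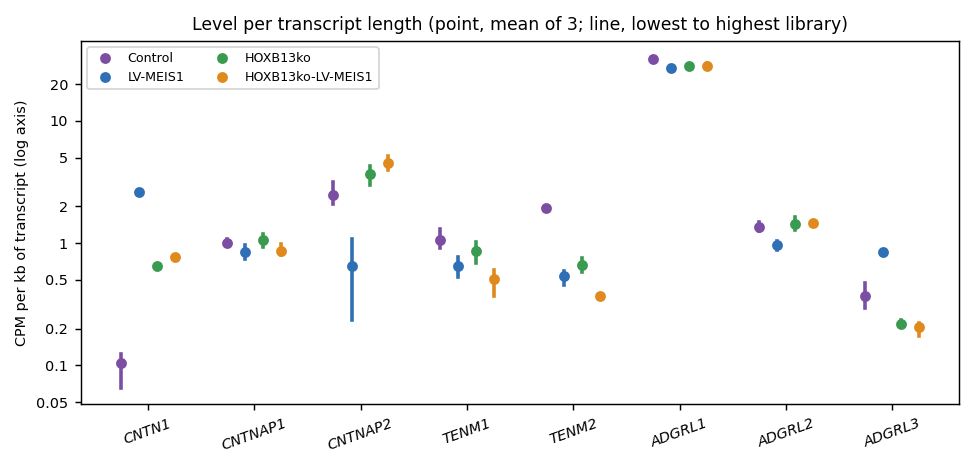
Mean CPM per kb of main transcript (vertical axis, log scale) of each listed member by group, with lines from the lowest to the highest library. ADGRL1 led in every group at 27.2 to 32.3 CPM per kb, and CNTN1 moved from the lowest place in Control (0.105 CPM per kb) to the second in LV-MEIS1 (2.62 CPM per kb).

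The latrophilins, receptors for teneurins, were dominated by ADGRL1 (ENSG00000072071, chr19:14147743-14206187). Per kb, ADGRL1 made up between 93.8% and 94.9% of the latrophilin sum in every group. Its level was 253 ± 6.41 CPM in Control, 212 ± 7.45 CPM in LV-MEIS1, 222 ± 9.60 CPM in HOXB13ko and 221 ± 13.6 CPM in HOXB13ko-LV-MEIS1 (SD, n = 3). All Control libraries lay above all others. The log2 differences were small, -0.25 ± 0.05 for LV-MEIS1 (limma eBayes, adjusted p = 0.00174) and -0.19 ± 0.05 for HOXB13ko (limma eBayes, adjusted p = 0.0156), and neither passed limma treat.

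ADGRL3 (ENSG00000150471, chr4:61200326-62078335) was the latrophilin that changed past the fold threshold. It was at 6.51, 4.06 and 4.67 CPM in Control and at 11.7, 11.6 and 11.4 CPM in LV-MEIS1. In the libraries labelled HOXB13ko it was at 2.88, 2.97 and 3.21 CPM, and in HOXB13ko-LV-MEIS1 at 3.07, 2.97 and 2.39 CPM. LV-MEIS1 lay above all other libraries, Control lay above both edited lines, and these 2 overlapped. The rise with MEIS1 in cells not edited was 1.14 ± 0.15 on the log2 scale (limma treat, adjusted p = 0.0264). In edited cells the difference was -0.09 ± 0.15, with a 95% interval from -0.40 to 0.22. The difference of the MEIS1 effects, 1.23 ± 0.21, did not pass limma treat (adjusted p = 0.104) and passed limma eBayes (adjusted p = 0.000491). It passed limma treat when Control replicate 1, the highest Control library, was left out (adjusted p = 0.00966). The call against Control was lost when Control replicate 2 or 3 or any LV-MEIS1 library was left out, with adjusted p up to 0.152 by limma treat. Between HOXB13ko-LV-MEIS1 and LV-MEIS1 the log2 difference was -1.87 ± 0.15 (limma treat, adjusted p = 8.61e-06), and this call held with any library left out. Per kb, ADGRL3 was 1.09% of the latrophilin sum in Control and 2.91% in LV-MEIS1.

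ADGRL2 (ENSG00000117114, chr1:81306147-81993932) followed the direction opposite to ADGRL3 with smaller differences. It was at 11.2, 9.60 and 9.37 CPM in Control, at 7.75, 6.52 and 7.11 CPM in LV-MEIS1, and between 9.60 and 12.2 CPM in the edited lines. LV-MEIS1 lay below all other libraries. Its log2 difference was -0.47 ± 0.11 for LV-MEIS1 against Control (limma eBayes, adjusted p = 0.00284) and 0.57 ± 0.11 for HOXB13ko-LV-MEIS1 against LV-MEIS1 (limma eBayes, adjusted p = 0.00054). Neither passed limma treat.

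**Figure D3:**
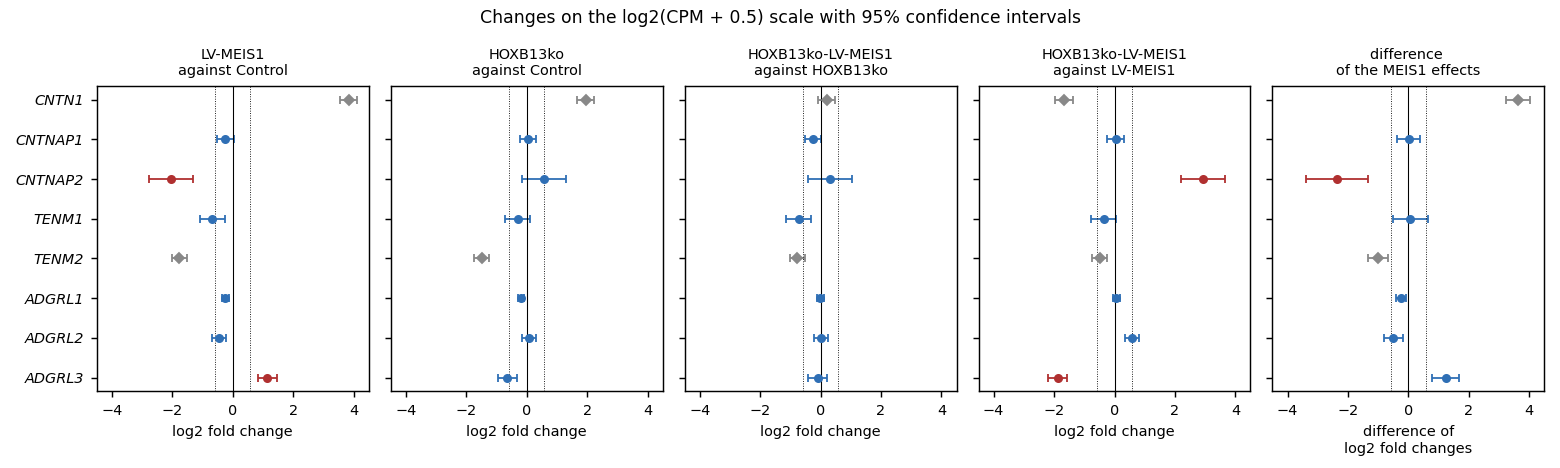
Log2 differences of the 8 listed members (horizontal axes, log2(CPM + 0.5) scale) with 95% confidence intervals in 5 comparisons. Red points passed limma treat, blue points did not, grey diamonds (CNTN1 and TENM2) were not tested, and dotted lines mark the 1.5-fold threshold. CNTNAP2 and ADGRL3 passed against Control and, in the opposite direction, between the 2 MEIS1 lines.

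Counted over the 6 members tested, limma treat called 2 in LV-MEIS1 against Control, ADGRL3 higher and CNTNAP2 lower, beside 3.99% of all genes (1.75% higher and 2.24% lower). Their median log2 difference was -0.36, and that of all genes was 0.01. Libraries of these groups did not overlap for 5 of the 6, and for 51.3% of all genes. In HOXB13ko against Control limma treat called 0 of the 6, with 0 at an unadjusted p under 0.05 and 2 by limma eBayes (ADGRL1 and ADGRL3, both lower), beside 1.41% of all genes called by treat, 2.71% at that unadjusted p, 32.9% by eBayes and 16.4% lower by eBayes. Libraries did not overlap for 2 of the 6 and for 44.9% of all genes, and the median was -0.07 against -0.00. In HOXB13ko-LV-MEIS1 against HOXB13ko limma treat and limma eBayes each called 0 of the 6, with 0 at an unadjusted treat p under 0.05, beside 0.00717%, 0.0502% and 0.0645% of all genes for the 3 rules. Here libraries did not overlap for TENM1 alone among the 6, against 21.1% of all genes, and the median was -0.05 against 0.01. In HOXB13ko-LV-MEIS1 against LV-MEIS1 limma treat called CNTNAP2 higher and ADGRL3 lower, beside 6.71% of all genes (3.29% higher and 3.42% lower), with a median of 0.05 against -0.02. Libraries did not overlap for 3 of the 6, and for 58.3% of all genes. The difference of the MEIS1 effects was called for CNTNAP2 among the 6, as lower, beside 2.93% of all genes (1.62% lower), with a median of -0.12 against 0.02. By limma eBayes 5, 3 and 4 of the 6 passed in LV-MEIS1 against Control, between the MEIS1 lines and for the difference, where 44.5%, 50.1% and 34.2% of all genes did. These comparisons share the libraries of all 4 groups, so their values are not independent. Labels do not say that replicates were separate cultures, and p-values measure only the spread between these samples. The 6 members were also chosen with earlier results of these data known, so their counts are a description and no test of the group.

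Other genes of the families and their binding partners were read from 4 lists of 53 genes, 38 of them listed. The lists were chosen with earlier results of these data known. Their counts beside the shares of all genes are therefore a description and no test of enrichment. In LV-MEIS1 against Control, limma treat called 10 of the 38, with 4 higher and 6 lower, beside 3.99% of all genes, and the median log2 difference was -0.12. In HOXB13ko against Control it called 1, in HOXB13ko-LV-MEIS1 against HOXB13ko 0 (0 at an unadjusted p under 0.05 and 0 by limma eBayes), in HOXB13ko-LV-MEIS1 against LV-MEIS1 11, and for the difference of the MEIS1 effects 5. The shares of all genes called in these 4 were 1.41%, 0.00717%, 6.71% and 2.93%. The medians in these 4 were 0.06, -0.02, 0.07 and -0.09. The list of teneurin and latrophilin partners held most of the calls, 7 of its 16 listed genes in LV-MEIS1 against Control. Of 10 listed contactin partners 2 were called, of 4 other contactins and Caspr genes 1, and of 8 G protein subunits 0 (0 at an unadjusted p under 0.05, 5 by limma eBayes, which called 44.5% of all genes).

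The FLRT proteins, ligands of latrophilins, went in opposite directions. FLRT3 was at 3.90, 3.16 and 3.86 CPM in Control and at 22.0, 20.01 and 19.1 CPM in LV-MEIS1. It ranged from 1.71 to 2.79 CPM in HOXB13ko and from 2.89 to 3.87 CPM in HOXB13ko-LV-MEIS1. FLRT3 rose with MEIS1 by 2.34 ± 0.15 on the log2 scale in cells not edited (limma treat, adjusted p = 7.2e-07). In edited cells its difference was 0.45 ± 0.15, which passed neither limma treat nor limma eBayes (limma eBayes, adjusted p = 0.213). The difference of the MEIS1 effects was 1.89 ± 0.22 (limma treat, adjusted p = 0.00102). FLRT2 was at 14.4, 9.61 and 12.2 CPM in Control, at 4.05, 3.81 and 3.11 CPM in LV-MEIS1 and at group means of 10.6 and 10.4 CPM in the edited lines. Its log2 difference was -1.59 ± 0.14 with MEIS1 (limma treat, adjusted p = 9.88e-05), and the difference of the MEIS1 effects was -1.57 ± 0.19 (limma treat, adjusted p = 0.00449). LV-MEIS1 stood apart from all other libraries for both genes, above for FLRT3 and below for FLRT2. FLRT1 was listed and not called, with group means from 1.79 to 2.81 CPM.

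The listed UNC5 receptors, which bind netrin and FLRT proteins, were all lower in LV-MEIS1. UNC5A was at 3.31, 4.02 and 4.16 CPM in Control and between 1.56 and 2.48 CPM in the edited lines. In LV-MEIS1 it was listed at 0, 0.141 and 0.296 CPM. In those libraries 3 reads correspond to an estimated 0.166, 0.141 and 0.111 CPM, in the same order. Limma treat called UNC5A in LV-MEIS1 against Control (adjusted p = 1.23e-06), but its fitted fold depends on the pseudocount. UNC5B went from 4.22 ± 0.46 to 1.72 ± 0.09 CPM (log2 difference -1.09 ± 0.14, limma treat, adjusted p = 0.0356), a call lost in 7 of the 12 fits that each left out 1 library, with adjusted p up to 0.158. Its means were 5.15 CPM in HOXB13ko and 4.66 CPM in HOXB13ko-LV-MEIS1. Between the MEIS1 lines the UNC5B log2 difference was 1.21 ± 0.14 (limma treat, adjusted p = 0.00486), a call kept with any library left out. UNC5C went from 4.07 ± 0.32 to 1.73 ± 0.15 CPM (log2 difference -1.03 ± 0.11, limma treat, adjusted p = 0.0126), and it was the partner called in HOXB13ko against Control, at 10.4 ± 0.82 CPM (log2 difference 1.26 ± 0.11, limma treat, adjusted p = 0.00123). The UNC5C call in LV-MEIS1 was lost without Control replicate 1 or LV-MEIS1 replicate 2, with an adjusted p of up to 0.061 by limma treat.

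Inside the cell, latrophilins bind SHANK scaffold proteins. SHANK2 was at 23.1, 20.7 and 19.4 CPM in Control, at 4.43, 4.65 and 6.45 CPM in LV-MEIS1, and between 26.4 and 33.2 CPM in the edited lines. It fell by 1.94 ± 0.11 on the log2 scale with MEIS1 in cells not edited (limma treat, adjusted p = 4.31e-07), and the difference of the MEIS1 effects was -1.76 ± 0.16 (limma treat, adjusted p = 0.000152). SHANK3 and SHANK1 did not pass limma treat in any of the 5 comparisons. With and without MEIS1 in cells not edited, SHANK3 was at 40.9 ± 4.24 and 39.3 ± 3.05 CPM, and SHANK1 at 2.33 ± 0.24 and 1.42 ± 0.66 CPM (SD, n = 3). GNAI1, an inhibitory G protein subunit, was called by limma treat in 1 of the 5 comparisons, that between the MEIS1 lines, at 22.1 ± 0.77 CPM in HOXB13ko-LV-MEIS1 and 8.88 ± 0.78 CPM in LV-MEIS1 (log2 difference 1.27 ± 0.10, limma treat, adjusted p = 8.26e-05).

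**Figure D4:**
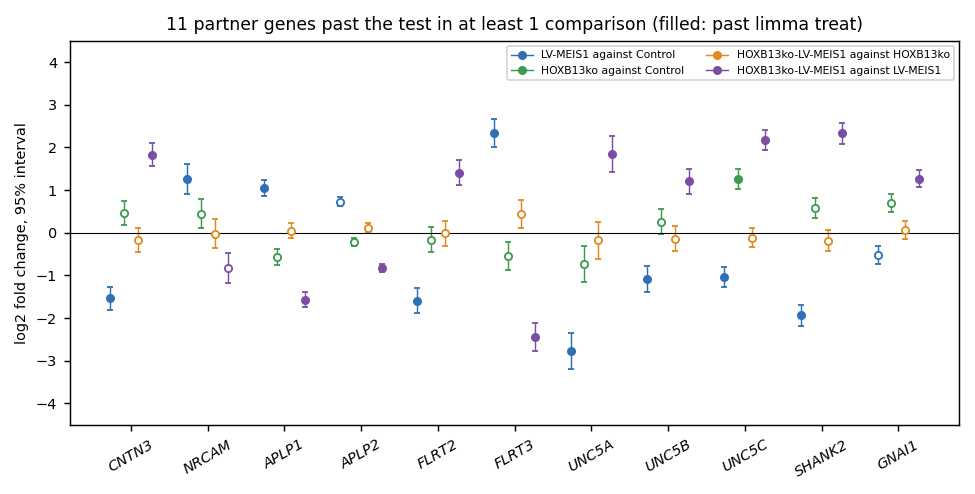
Log2 differences (vertical axis, log2(CPM + 0.5) scale) with 95% confidence intervals of 11 partner genes that passed limma treat in any comparison, with filled points for those that passed and open points for those that did not. FLRT3 rose and FLRT2, UNC5A and SHANK2 fell in LV-MEIS1 against Control, with points of the opposite sign between the MEIS1 lines.

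On the contactin side, CNTN3 and CNTN4 were lower in LV-MEIS1 than in Control, while CNTN1 was higher. CNTN4 averaged 4.51 CPM in Control and 2.65 CPM in LV-MEIS1, a log2 difference of -0.66 ± 0.15. That difference passed limma eBayes (adjusted p = 0.00262) and did not pass limma treat. CNTN3 was at 4.48, 4.58 and 3.82 CPM in Control, at 1.22, 1.08 and 1.15 CPM in LV-MEIS1 and between 4.78 and 6.77 CPM in the edited lines. Its log2 difference with MEIS1 was -1.54 ± 0.13 (limma treat, adjusted p = 8.78e-05), and the difference of the MEIS1 effects was -1.37 ± 0.18 (limma treat, adjusted p = 0.016). NRCAM, an adhesion protein that binds contactins, rose from 1.53 ± 0.35 to 4.32 ± 0.19 CPM (log2 difference 1.26 ± 0.16, limma treat, adjusted p = 0.0145), a call lost without Control replicate 2, Control replicate 3 or LV-MEIS1 replicate 1, with adjusted p up to 0.0805. APLP1, an amyloid precursor relative, rose from 58.9 ± 4.99 to 122 ± 9.07 CPM (log2 difference 1.05 ± 0.08, limma treat, adjusted p = 0.00147). Between the MEIS1 lines APLP1 was at 41.0 ± 3.72 CPM in HOXB13ko-LV-MEIS1, and its relative APLP2 was at 304 ± 14.4 CPM there against 541 ± 5.99 CPM in LV-MEIS1, a log2 difference of -0.83 ± 0.05 (limma treat, adjusted p = 0.00132). CNTNAP3 and CNTNAP3B are near-identical copies that can share reads, and they were not called.

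By the root mean square difference of centred log2 values over the 12 libraries, the 2 genes nearest to CNTN1 among 13901 were CA8 (0.508) and PCDHB5 (0.535). CA8 averaged 2.59 CPM in Control, 17.7 CPM in LV-MEIS1, 6.24 CPM in HOXB13ko and 5.77 CPM in HOXB13ko-LV-MEIS1. The genes most like TENM2 were AMN (0.244), ATCAY (0.345) and HSPB8 (0.355), and ATCAY averaged 10.1 CPM in Control and 1.74, 1.88 and 1.25 CPM in the other groups in the same order. TENM1 ranked 89 for likeness to TENM2, and no other member stood nearer to either gene.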

How the data were processed

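Values were the CPM that the authors deposited for 12 libraries. To make them, the authors demultiplexed single-end 50 bp reads with CASAVA 1.8, trimmed them with Trimmomatic 0.38, quantified Ensembl GRCh38 transcripts in kallisto 0.43.1 (fragment length 180, SD 20), summed transcripts to genes, filtered genes on a minimum of 10 counts applied within groups (so that a gene low in 1 group can be kept) and normalised the libraries with edgeR 3.22.2. Each table held 13993 rows, and 42 exact repeats were left out. Of values under 1 CPM, 47.9% to 61.1% per library were within 0.1 of a whole number of reads, so reads were not recovered and depth was estimated from the steps between values.

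Every gene was fitted on log2(CPM + 0.5) in limma 3.58.1 (R 4.3.3), with 1 mean per group over the 12 libraries. Calls used treat against a fold of 1.5 (trend = TRUE), with p adjusted by Benjamini and Hochberg over 13951 genes and called under 0.05. The eBayes test against no change, other pseudocounts, filters and scalings, a replicate block and leaving out each library were alternatives. The script was tested on simulated data. Listed members, partner genes called in any comparison, and the 3 nearest profiles of CNTN1 and TENM2 (searched among genes averaging 1 CPM or more) were named, except that some items under this rule are not reported here. The members and lists were chosen with earlier results of these data known. Gene positions and lengths came from GENCODE 44 (GRCh38), matched by symbol, and promoters from RefSeq (GRCh38.p14). Figures were drawn with matplotlib 3.10.9.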

Additional observations from a re-analysis of the deposited data

Results flagged for a closer look

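The difference between the MEIS1 effect in cells not edited at HOXB13 and that in cells labelled HOXB13ko passed limma treat for 1 of the 6 members tested and 5 of the 38 listed partners, beside 2.93% of all genes. Members and partners were chosen with earlier results of these data known, so these counts are a description. On the log2 scale the difference of the MEIS1 effects was -2.36 for CNTNAP2, -1.37 for CNTN3, -1.57 for FLRT2, 1.89 for FLRT3, -2.59 for UNC5A and -1.76 for SHANK2. MEIS1 itself was at 47.4 ± 1.96 CPM in LV-MEIS1 and 29.7 ± 0.36 CPM in HOXB13ko-LV-MEIS1 (SD, n = 3), and the part of this difference in MEIS1 level was not tested. The UNC5A value rests on LV-MEIS1 libraries with few reads (0, 0.141 and 0.296 CPM), ran from -3.99 to -1.93 over the alternatives and is no bound. With 1 library left out in turn, the call of CNTNAP2 was lost in 9 of 12 fits (limma treat, adjusted p up to 0.119), and that of CNTN3 was lost without HOXB13ko replicate 2 (limma treat, adjusted p = 0.0553).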

How the results depend on the processing

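Counts depended most on the fold threshold. By limma eBayes against no change, members passing numbered 5 in LV-MEIS1 against Control, 2 in HOXB13ko against Control and 4 for the difference of the MEIS1 effects, and partners passing numbered 25, 19 and 20 there and 24 between the MEIS1 lines. Over all genes eBayes called 6207, 4590, 7, 6993 and 4771 against 557, 197, 1, 936 and 409 by treat, in the order of the 5 comparisons. Leaving out each library in turn gave 1 to 2 members called in LV-MEIS1 against Control and 0 to 1 for the difference. Small differences crossed 0 in these fits, so no direction is given for them: CNTNAP1 from -0.034 to 0.13 in HOXB13ko against Control, from -0.055 to 0.12 between the MEIS1 lines and from -0.073 to 0.10 for the difference, ADGRL2 from -0.030 to 0.15 in HOXB13ko against Control, TENM1 from -0.15 to 0.21 for the difference, and, in HOXB13ko-LV-MEIS1 against HOXB13ko, ADGRL1 from -0.048 to 0.041, ADGRL2 from -0.039 to 0.13 and ADGRL3 from -0.15 to 0.0033. Pseudocounts of 0.1 and 1 gave 4.48 and 3.32 for CNTN1 in LV-MEIS1 against Control, and a pseudocount of 1 ended the calls of UNC5B and UNC5C there and of CNTN3 for the difference. Replicate numbers did not pair the samples (same-number correlations from -0.209 to 0.0398), and the replicate block left 2 members called in LV-MEIS1 against Control. The block ended the UNC5B call there (limma treat, adjusted p = 0.0619), leaving 9 partners, and no other call of a member or partner. Fitting only the 6 libraries compared ended the calls of UNC5B and UNC5C there, among the partners named. Scalings moved the median of all genes by at most 0.0386. Values of only a few reads, as for UNC5A in LV-MEIS1, carry little information.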
